A study of Homo sapiens with 12 samples.

Results

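RNA levels of the NF-kappaB subunit genes and of genes that restrain the pathway and are known to be switched on by it were compared in MD901 lymphoma cells. The genes were NFKB1, NFKB2, REL, RELA and RELB, which encode the 5 subunits, and the feedback genes NFKBIA, NFKBIE, BIRC3, TNFAIP3 and TRAF1. For each symbol the row with the highest mean over the libraries, on a primary chromosome, was taken from a table of 24181 rows. This gave 9 of the 10 listed genes, and NFKBIE was not analysed here. No measured difference was used to choose a row.

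MD901 is an established human cell line, derived from a diffuse large B-cell lymphoma with germinal centre features, and carries wild-type CREBBP. There were 4 groups of 3 libraries each: cells with a scramble hairpin, and cells with shCREBBP.1027, shCREBBP.3753 or shCREBBP.572, which are short hairpin RNAs against the acetyltransferase gene CREBBP. A second label of the first hairpin gives it a longer number. All cells grew in the same medium with serum and had no other treatment named in the labels, which do not say how the hairpins were delivered, for how long, or whether the 3 libraries of a group came from separate cultures. The p-values therefore reflect spread among these libraries alone, and that spread could be technical. In bulk RNA, fewer cells of a type and less RNA per cell cannot be told apart.

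NF-kappaB subunits pair with each other to form factors that bind kappaB sites in DNA. In resting cells inhibitors of the IkappaB family hold the pairs in the cytoplasm, until a receptor signal leads the IKK kinases to mark the inhibitor for destruction. The factors then switch on their own inhibitors, so the response limits itself, and the acetyltransferases CREBBP and EP300 serve as coactivators of RELA. Germinal centre B cells are known for low NF-kappaB activity, while B cells that receive CD40 or antigen receptor signals raise it.

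Windows from 250 bases before the annotated start to 50 after it were read for the genes whose RNA results are described in most detail below, to show the kappaB-like letters that lie before several of them. The sequences are from RefSeq on GRCh38.p14, written 5′ to 3′ on the strand of the gene. Capitals mark matches to GGGNNTTTCC or GGGNNTTCCC on either strand, forms that were chosen after the windows had been seen and that can overlap each other.
NFKBIA: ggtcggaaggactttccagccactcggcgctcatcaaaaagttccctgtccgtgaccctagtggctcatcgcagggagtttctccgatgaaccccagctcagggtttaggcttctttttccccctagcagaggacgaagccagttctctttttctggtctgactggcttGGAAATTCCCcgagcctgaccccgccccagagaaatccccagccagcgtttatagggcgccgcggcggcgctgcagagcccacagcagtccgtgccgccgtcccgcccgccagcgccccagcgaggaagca
TNFAIP3: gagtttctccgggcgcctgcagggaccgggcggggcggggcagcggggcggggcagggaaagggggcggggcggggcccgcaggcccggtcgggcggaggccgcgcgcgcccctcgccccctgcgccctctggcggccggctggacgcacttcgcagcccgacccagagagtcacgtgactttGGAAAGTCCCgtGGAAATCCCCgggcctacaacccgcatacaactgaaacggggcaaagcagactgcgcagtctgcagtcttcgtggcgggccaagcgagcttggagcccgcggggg
BIRC3: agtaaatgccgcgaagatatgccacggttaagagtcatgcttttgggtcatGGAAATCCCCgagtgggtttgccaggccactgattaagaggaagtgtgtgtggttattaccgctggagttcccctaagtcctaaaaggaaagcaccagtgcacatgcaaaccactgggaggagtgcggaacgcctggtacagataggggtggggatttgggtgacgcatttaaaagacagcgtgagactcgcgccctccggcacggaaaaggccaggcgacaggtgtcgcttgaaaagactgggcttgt
NFKB2: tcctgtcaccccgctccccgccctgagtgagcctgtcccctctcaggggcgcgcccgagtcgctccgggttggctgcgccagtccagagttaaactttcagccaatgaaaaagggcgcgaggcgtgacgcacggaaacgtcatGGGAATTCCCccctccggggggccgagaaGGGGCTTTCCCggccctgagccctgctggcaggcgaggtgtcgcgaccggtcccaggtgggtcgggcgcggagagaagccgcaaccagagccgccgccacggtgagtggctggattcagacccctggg
TRAF1: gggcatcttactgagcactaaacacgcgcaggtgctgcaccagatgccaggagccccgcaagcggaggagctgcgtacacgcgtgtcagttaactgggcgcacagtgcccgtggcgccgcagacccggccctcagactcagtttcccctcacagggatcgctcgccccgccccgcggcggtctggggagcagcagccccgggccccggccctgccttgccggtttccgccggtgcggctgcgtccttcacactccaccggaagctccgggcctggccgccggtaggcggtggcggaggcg

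These windows are chr14:35404700-35404999 on the minus strand for NFKBIA, chr6:137867009-137867308 on the plus strand for TNFAIP3 and chr11:102317234-102317533 on the plus strand for BIRC3. That of NFKB2 is chr10:102394328-102394627 on the plus strand, and that of TRAF1 is chr9:120929122-120929421 on the minus strand. Of the 9 genes, 8 had a window under their symbol, and the window of RELB was not analysed here. For a gene with several windows the one with the most matches is shown, or the first listed.

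In TNFAIP3 the matches GGAAAGTCCC and GGAAATCCCC began at positions -67 and -55, counted from the start. In NFKBIA the match GGAAATTCCC began at -81 and in BIRC3 the match GGAAATCCCC at -199. NFKB2 held GGGAATTCCC from -107, and GGGGCTTTCC and GGGCTTTCCC, which overlap, from -78 and -77. NFKB1 held GGGAATTTCC from -49 and REL held GGAAATTCCC from -46. No match lay in the 2 windows of RELA or the 3 of TRAF1. Of the 14 windows of these genes 7 held a match, against 3.88% of all 35116 windows of the same length, where GGGNNTTTCC lay in 1.91% and GGGNNTTCCC in 2.17%. The forms were chosen after these windows had been seen, so this comparison is no test of enrichment. A match describes letters and shows no binding.

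The deposited table names no unit. Its values were read as FPKM, in which fragments are divided by transcript length and by library size. They were tested as log2(FPKM + 1) by limma, with p-values adjusted over the 11757 rows that had a mean of at least 1 FPKM, and a row is called changed at an adjusted p under 0.05. All 9 genes passed that filter. The number of reads per library is unknown. Library totals were 538076 to 722976 FPKM, except scramble replicate 3 at 4978530, where 6 rows above 100000 FPKM were at 0 in all other libraries. The upper quartile of all rows was 9.82 to 10.9 FPKM. Scramble libraries resembled each other least, with Spearman correlations across rows of 0.932 to 0.967 between them. Between libraries of the same hairpin they were 0.970 to 0.985. Array weights, which limma sets lower for more variable libraries, were 0.136 for scramble replicate 1 and 0.721 to 2.51 for all others. Scramble replicate 3 had a weight of 0.775. Of 6 B-cell markers, 5 had a mean of at least 1 FPKM and CD22 was near 0, and the 6 summed to 168 to 341 FPKM. Their sums were 210 to 262 FPKM in scramble, 216 to 232 in libraries labelled shCREBBP.1027, 317 to 341 for shCREBBP.3753 and 168 to 176 for shCREBBP.572. T and NK cell markers summed to 0.119 to 1.97 FPKM with CD3D at 0 throughout. Myeloid markers summed to 2.82 to 3.36 FPKM in libraries labelled shCREBBP.1027, above every other library (1.14 to 2.34 in scramble, 1.93 to 2.09 for shCREBBP.3753, 1.66 to 2.44 for shCREBBP.572). Of these 6 markers LYZ alone had a mean of at least 1 FPKM, and CD14 was at 0.860 to 1.01 FPKM in libraries labelled shCREBBP.1027 and at 0 to 0.326 in the others. Stromal and epithelial markers summed to 0.747 to 8.07 FPKM with EPCAM at 0 and KRT8 alone at a mean of at least 1. The highest sum was in scramble replicate 3, where COL1A1 was at 6.85 FPKM, and COL1A1 was at 0 in all other libraries. The part of these differences in the results below was not tested.

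CREBBP RNA, the target of the hairpins, was at 13.7, 7.10 and 5.82 FPKM in scramble replicates 1, 2 and 3. Libraries labelled shCREBBP.1027 held 11.4, 11.7 and 12.6 FPKM, those labelled shCREBBP.3753 held 5.92, 6.16 and 6.10, and those labelled shCREBBP.572 held 7.99, 7.53 and 6.91. No hairpin group was called lower than scramble (log2 differences 0.47, -0.40 and -0.14, adjusted p = 0.104, 0.177 and 0.697). Between hairpins CREBBP was lower in shCREBBP.3753 libraries (-0.87 ± 0.21, adjusted p = 0.00678) and in shCREBBP.572 libraries (-0.61 ± 0.21, adjusted p = 0.0385) than in those labelled shCREBBP.1027 (F test adjusted p = 0.0116). Averaged over the hairpins the CREBBP difference was -0.03 ± 0.17 (SE; adjusted p = 0.933), and without scramble replicate 1 it was 0.30 and called higher (adjusted p = 0.0174). A direction given for a hairpin is therefore that of the libraries so labelled, and a loss of CREBBP RNA was not shown for them.

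The 3 hairpin groups did not move the pathway genes together. Averaged over the hairpins, NFKB2, NFKBIA and BIRC3 rose and NFKB1 and TNFAIP3 fell against scramble, and REL, RELA, RELB and TRAF1 were not called. That is 3 of 9 genes higher and 2 lower, where 11.5% of all tested rows were called higher and 14.6% lower, or 26.0% either way. In libraries labelled shCREBBP.1027, 5 rose and 1 fell, against 16.5% and 22.7% of all rows, 39.2% either way. With shCREBBP.3753, 3 rose and 3 fell, against 16.1% and 13.2%, 29.4% either way. With shCREBBP.572, 2 rose and 1 fell, against 8.99% and 10.8%, 19.8% either way. The median log2 difference of the 9 genes was 0.52 in libraries labelled shCREBBP.1027, beside -0.03 over all rows. It was -0.09 for shCREBBP.3753 and -0.07 for shCREBBP.572, beside 0.03 and 0.01. NFKB2 was the 1 gene called in the same direction with each hairpin. TNFAIP3 and RELA were called higher in libraries labelled shCREBBP.1027 and lower with shCREBBP.3753, which makes 2 of 9 genes called in opposite directions, against 6.36% of all rows. All these comparisons share the 3 scramble libraries. When the 9 hairpin libraries formed a single group, whose spread then included the gaps between hairpins, none of the 5 averaged calls held (adjusted p = 0.0696 to 0.756).

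The share of lower calls among all called rows depended on scaling. In libraries labelled shCREBBP.1027 it was 58.0% as deposited, 47.4% after quantile normalization and 37.0% after upper quartile scaling. In the averaged comparison the shares were 55.9%, 47.5% and 38.1% in the same order. Upper quartile scaling moved the median of all rows in libraries labelled shCREBBP.1027 from -0.03 to 0.10 on the log2 scale.

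**Figure D1:**
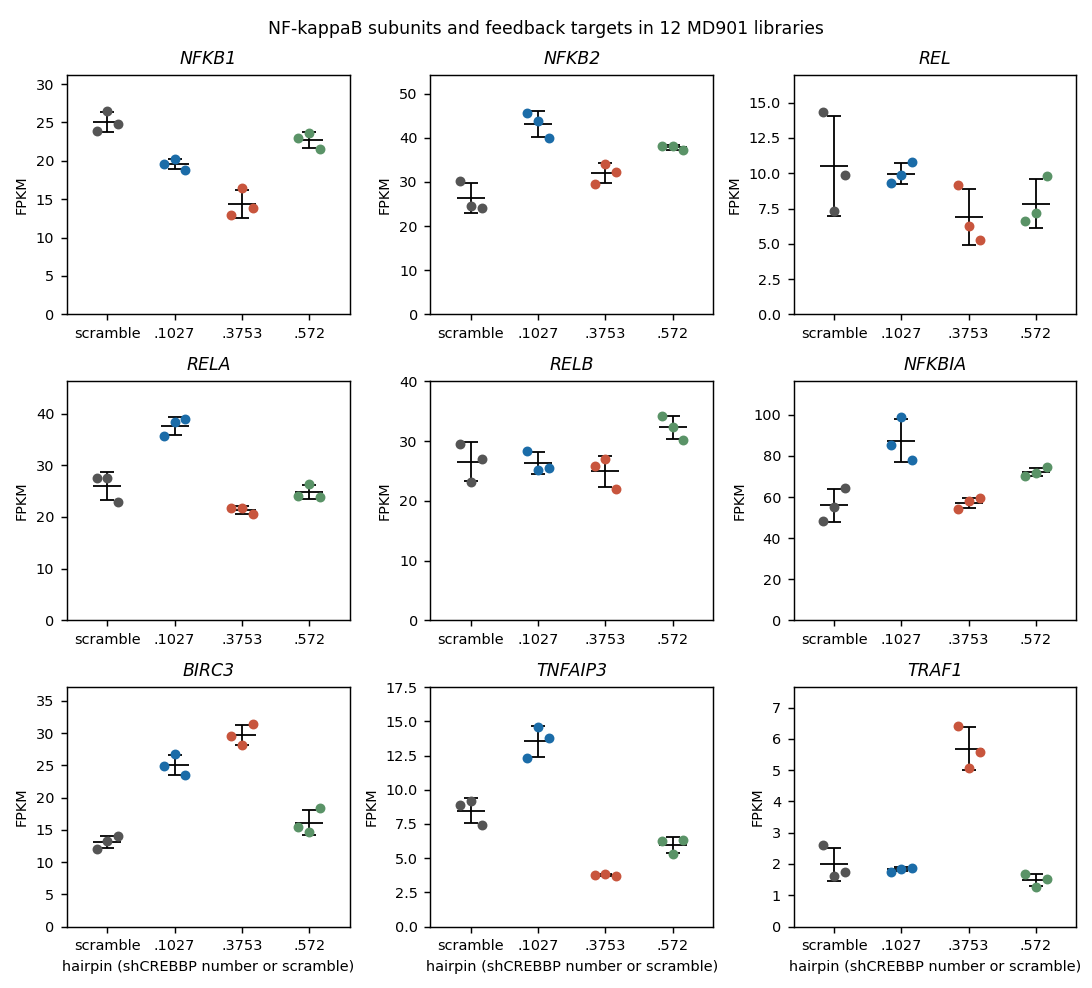
FPKM of the 9 genes in each of the 12 libraries, one panel a gene, with scramble and the 3 hairpins on the horizontal axis; points are libraries and bars are the mean and SD of 3. TNFAIP3 is highest in libraries labelled shCREBBP.1027 and lowest with shCREBBP.3753, where TRAF1 and BIRC3 are highest.

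NFKB1 encodes a precursor that is trimmed to the DNA-binding subunit p50, the usual partner of RELA. Its row (hg19 chromosome 4, 103422486 to 103538548) held 23.9, 26.5 and 24.8 FPKM in scramble and 19.6, 20.3 and 18.9 FPKM in libraries labelled shCREBBP.1027. It held 12.9, 16.4 and 13.9 FPKM with shCREBBP.3753 and 22.9, 23.6 and 21.6 with shCREBBP.572. Neighbouring groups did not overlap, in the order scramble, shCREBBP.572, shCREBBP.1027 and shCREBBP.3753. The lowest scramble library, at 23.9 FPKM, lay close to the highest shCREBBP.572 library, at 23.6. NFKB1 fell by 0.34 ± 0.09 (SE; adjusted p = 0.00893) in libraries labelled shCREBBP.1027 and by 0.76 ± 0.09 (adjusted p = 1.12e-04) with shCREBBP.3753 on the log2 scale. For NFKB1 the difference of -0.14 ± 0.09 with shCREBBP.572 was not called (adjusted p = 0.305). Between shCREBBP.572 and shCREBBP.1027 libraries NFKB1 differed by 0.20 ± 0.09, which was not called (adjusted p = 0.0806). Its fall with shCREBBP.3753 exceeded that in libraries labelled shCREBBP.1027 by 0.42 ± 0.09 (adjusted p = 0.00229). After upper quartile scaling the difference in libraries labelled shCREBBP.1027 was -0.19 and was no longer called (adjusted p = 0.104). Averaged over the hairpins NFKB1 fell by 0.41 ± 0.07 (SE; adjusted p = 0.00161). The exact permutation p of the 9 hairpin libraries against scramble was 0.00909, the smallest that 220 splits allow. This permutation, here and for the genes below, treats libraries of different hairpins as exchangeable, so gaps between hairpins are not weighed.

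NFKB2 encodes the precursor of p52, the subunit of the alternative pathway that pairs with RELB, and moved the opposite way. Its row (chromosome 10, 104153867 to 104162291) held 30.2, 24.6 and 24.1 FPKM in scramble and 45.7, 43.8 and 40.0 FPKM in libraries labelled shCREBBP.1027. It held 29.6, 34.1 and 32.3 FPKM with shCREBBP.3753 and 38.1, 38.2 and 37.2 with shCREBBP.572. All libraries of shCREBBP.1027 and shCREBBP.572 lay above scramble, and 1 library of shCREBBP.3753 lay below scramble replicate 1. NFKB2 rose by 0.70 ± 0.09 (SE; adjusted p = 1.45e-04) on the log2 scale in libraries labelled shCREBBP.1027. Its rise was 0.52 ± 0.09 (adjusted p = 0.00256) for shCREBBP.572 and 0.28 ± 0.09 (adjusted p = 0.0408) for shCREBBP.3753. Between shCREBBP.3753 and shCREBBP.1027 libraries the NFKB2 level differed by -0.42 ± 0.09 (adjusted p = 0.00371). The call with shCREBBP.3753 ended without scramble replicate 2 (adjusted p = 0.113), scramble replicate 3 (0.109), shCREBBP.3753 replicate 2 (0.136) or replicate 3 (0.104), either of shCREBBP.1027 replicates 1 and 2 (0.0507 and 0.0546), or any library of shCREBBP.572 (0.0535 to 0.0573). It also ended after quantile normalization (0.115), with no filter (0.0612) and in a fit of the 6 libraries compared (0.128). Averaged over the hairpins, NFKB2 rose by 0.50 ± 0.08 (SE; adjusted p = 8.14e-04; exact permutation p = 0.0182).

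RELA encodes p65, the main activating subunit of the classical pathway. Its row (chromosome 11, 65420942 to 65430443) held 27.6, 27.6 and 23.0 FPKM in scramble and 35.7, 38.3 and 39.0 FPKM in libraries labelled shCREBBP.1027. It held 21.8, 21.8 and 20.5 FPKM with shCREBBP.3753 and 24.1, 26.3 and 23.9 with shCREBBP.572. Libraries labelled shCREBBP.1027 lay above all others and those of shCREBBP.3753 below all others, while shCREBBP.572 overlapped scramble. RELA rose by 0.52 ± 0.08 (SE; adjusted p = 4.82e-04) in libraries labelled shCREBBP.1027. In shCREBBP.3753 libraries RELA fell by 0.27 ± 0.08 (adjusted p = 0.0295). The difference between these hairpins, -0.79 ± 0.08, was called (adjusted p = 2.37e-05), and so was that of -0.58 ± 0.08 between shCREBBP.572 and shCREBBP.1027 (adjusted p = 1.87e-04). The fall with shCREBBP.3753 was no longer called without scramble replicate 1 (adjusted p = 0.0627) or 2 (0.0907), without any single shCREBBP.3753 library (0.0614 to 0.0996), after upper quartile scaling (0.0652) or in a fit of the 6 libraries compared (0.0999). The averaged difference was 0.06 ± 0.07 (adjusted p = 0.536).

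REL encodes c-Rel, a subunit of lymphocytes, and was the 1 gene of the 9 that was not called in any comparison of the 12 libraries with equal weights. Its row (chromosome 2, 61108630 to 61155291) held 14.3, 7.35 and 9.89 FPKM in scramble and 9.29, 9.85 and 10.8 FPKM in libraries labelled shCREBBP.1027. It held 9.15, 6.23 and 5.29 FPKM with shCREBBP.3753 and 6.60, 7.15 and 9.80 with shCREBBP.572. Scramble had the widest range and held the highest library, 2 libraries each of shCREBBP.3753 and shCREBBP.572 lay below all of scramble, and each neighbouring pair of groups overlapped. The largest difference from scramble was -0.53 ± 0.22 (SE; adjusted p = 0.0974), with shCREBBP.3753. That difference was called without scramble replicate 2 (-0.74, adjusted p = 0.0311) or without shCREBBP.3753 replicate 1 (-0.73, 0.0438). REL also differed between shCREBBP.3753 and shCREBBP.1027 without scramble replicate 1 (-0.50, adjusted p = 0.0457), without shCREBBP.3753 replicate 1 (-0.70, 0.0365) and with array weights (-0.46, 0.0466).

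RELB, the subunit that pairs with p52, stayed within a narrow range on the row used here. A second row of the symbol, at a lower level, did not, and is described near the end. Its row with the highest mean (chromosome 19, 45504707 to 45541642) held 29.6, 23.1 and 27.0 FPKM in scramble and 28.4, 25.1 and 25.5 FPKM in libraries labelled shCREBBP.1027. It held 25.8, 27.0 and 22.0 FPKM with shCREBBP.3753 and 34.2, 32.4 and 30.3 with shCREBBP.572. The shCREBBP.572 libraries lay above all others and the other 3 groups overlapped. No difference from scramble was called: -0.01 ± 0.10 (SE; adjusted p = 0.962) in libraries labelled shCREBBP.1027, -0.09 ± 0.10 (0.560) for shCREBBP.3753 and 0.28 ± 0.10 (0.0865) for shCREBBP.572. The shCREBBP.572 difference was called without scramble replicate 1 (0.35, adjusted p = 0.0275), with the 3 rows of the symbol summed (0.35, 0.0247) and with array weights (0.43, 0.00409). RELB was higher with shCREBBP.572 than with shCREBBP.3753 by 0.36 ± 0.10 (adjusted p = 0.0195) and than in libraries labelled shCREBBP.1027 by 0.28 ± 0.10 (adjusted p = 0.0459). The first of these calls ended without shCREBBP.3753 replicate 3 (adjusted p = 0.0846) or shCREBBP.572 replicate 1 or 2 (0.0735 and 0.0539). The second ended without scramble replicate 3 (adjusted p = 0.0568), shCREBBP.1027 replicate 2 or 3 (0.131 and 0.120), shCREBBP.3753 replicate 1 or 2 (0.0606 and 0.0506), or any shCREBBP.572 library (0.0510 to 0.139).

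NFKBIA encodes IkappaB-alpha, the inhibitor that is rebuilt after each NF-kappaB response, and had the highest level of the 9 genes, at 56.0 ± 8.05 FPKM (SD, n = 3) in scramble. Its row (chromosome 14, 35870716 to 35873960) held 48.3, 55.3 and 64.3 FPKM in scramble and 85.1, 98.8 and 78.2 FPKM in libraries labelled shCREBBP.1027. It held 54.4, 58.0 and 59.3 FPKM with shCREBBP.3753 and 70.3, 71.9 and 74.4 with shCREBBP.572. Groups stood apart in the order shCREBBP.1027, shCREBBP.572 and then shCREBBP.3753 with scramble, which overlapped. NFKBIA rose by 0.64 ± 0.11 (SE; adjusted p = 7.51e-04) in libraries labelled shCREBBP.1027 and by 0.37 ± 0.11 (adjusted p = 0.0325) with shCREBBP.572, and the difference was 0.04 ± 0.11 (adjusted p = 0.809) with shCREBBP.3753. It was lower with shCREBBP.3753 than in libraries labelled shCREBBP.1027 (-0.60 ± 0.11, adjusted p = 0.00111). Against shCREBBP.3753, NFKBIA was higher for shCREBBP.572 by 0.33 ± 0.11 (adjusted p = 0.0355), a call that ended without any single library of these hairpins (0.0636 to 0.112). The rise with shCREBBP.572 was no longer called without scramble replicate 1 (adjusted p = 0.0634) or 2 (0.0754), without any single shCREBBP.572 library (0.0683 to 0.0953), with no filter (0.0558) or in a fit of the 6 libraries compared (0.105). Averaged, NFKBIA rose by 0.35 ± 0.09 (SE; adjusted p = 0.0137), with an exact permutation p of 0.0727 over 220 splits.

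TNFAIP3 encodes A20, a ubiquitin-editing enzyme that shuts off signalling to IKK and is often inactivated in B-cell lymphomas. Its group means spanned 1.60 on the log2(FPKM + 1) scale, more than those of the other genes on that scale, which compresses low levels such as those of TRAF1 (1.42). Its row (chromosome 6, 138144807 to 138204451) held 8.85, 9.19 and 7.41 FPKM in scramble and 12.3, 14.6 and 13.8 FPKM in libraries labelled shCREBBP.1027. It held 3.76, 3.86 and 3.71 FPKM with shCREBBP.3753 and 6.26, 5.30 and 6.30 with shCREBBP.572. No library of any group overlapped with another group. TNFAIP3 rose by 0.62 ± 0.10 (SE; adjusted p = 5.13e-04) in libraries labelled shCREBBP.1027, while its falls were -0.98 ± 0.10 (adjusted p = 5.79e-05) for shCREBBP.3753 and -0.45 ± 0.10 (adjusted p = 0.00884) for shCREBBP.572. The hairpins differed from each other in all 3 pairs. The difference was -1.60 ± 0.10 (adjusted p = 7.83e-07) between shCREBBP.3753 and shCREBBP.1027, -1.07 ± 0.10 (adjusted p = 1.19e-05) between shCREBBP.572 and shCREBBP.1027, and 0.54 ± 0.10 (adjusted p = 0.00159) between shCREBBP.572 and shCREBBP.3753. In a fit of the 6 libraries compared, the fall with shCREBBP.572 was not called (adjusted p = 0.0738). The averaged fall of 0.27 ± 0.08 (SE; adjusted p = 0.0298) joins a rise to a pair of falls, and the exact permutation p was 0.536. The averaged call ended without scramble replicate 1 (-0.24, adjusted p = 0.0821) or 2 (-0.22, 0.127), with no filter (0.0684) or after upper quartile scaling (0.0620).

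BIRC3 encodes cIAP2, a ubiquitin ligase that passes signals from tumour necrosis factor receptors on and holds back the alternative pathway. Its row (chromosome 11, 102188181 to 102210135) held 12.1, 13.3 and 14.0 FPKM in scramble and 25.0, 26.7 and 23.6 FPKM in libraries labelled shCREBBP.1027. It held 29.6, 28.2 and 31.4 FPKM with shCREBBP.3753 and 15.4, 14.7 and 18.3 with shCREBBP.572. All 9 hairpin libraries lay above all scramble libraries, and neighbouring groups did not overlap. BIRC3 rose by 0.89 ± 0.09 (SE; adjusted p = 2.75e-05) in libraries labelled shCREBBP.1027 and by 1.12 ± 0.09 (adjusted p = 2.08e-05) with shCREBBP.3753. With shCREBBP.572 the difference was 0.28 ± 0.09 and missed the threshold (adjusted p = 0.0568). That last difference was called without shCREBBP.572 replicate 2 (0.34, adjusted p = 0.0470), under the 5 FPKM filter (0.0443), with array weights (0.0400), and after quantile normalization (0.0195) or upper quartile scaling (0.0200). BIRC3 was lower in shCREBBP.572 libraries than in those of shCREBBP.3753 (-0.85 ± 0.09, adjusted p = 4.92e-05) and those labelled shCREBBP.1027 (-0.61 ± 0.09, adjusted p = 3.14e-04). The difference of 0.24 ± 0.09 between shCREBBP.3753 and shCREBBP.1027 missed the threshold (adjusted p = 0.0616), and was called without scramble replicate 1 (0.0389) or shCREBBP.572 replicate 3 (0.0360). Averaged, BIRC3 rose by 0.76 ± 0.08 (SE; adjusted p = 4.89e-05; exact permutation p = 0.00909, the smallest possible).

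TRAF1 encodes an adaptor that binds TRAF2 and the cIAP ligases at tumour necrosis factor receptors, and had the lowest level of the 9 genes. Its row (chromosome 9, 123663898 to 123691451) held 2.60, 1.62 and 1.75 FPKM in scramble and 1.75, 1.85 and 1.87 FPKM in libraries labelled shCREBBP.1027. It held 6.41, 5.06 and 5.59 FPKM with shCREBBP.3753 and 1.68, 1.28 and 1.51 with shCREBBP.572. Libraries of shCREBBP.3753 stood far above the rest, and the other hairpins overlapped scramble. TRAF1 rose by 1.17 ± 0.15 (SE; adjusted p = 2.73e-04) with shCREBBP.3753, a scale that understates the change at such low levels, and the group means were 5.69 ± 0.68 FPKM (SD, n = 3) against 1.99 ± 0.53. The differences of -0.07 ± 0.15 in libraries labelled shCREBBP.1027 and -0.25 ± 0.15 with shCREBBP.572 were not called (adjusted p = 0.754 and 0.282). TRAF1 was higher with shCREBBP.3753 than in libraries labelled shCREBBP.1027 by 1.24 ± 0.15 (adjusted p = 7.58e-05). The averaged difference of 0.28 ± 0.12 was not called (adjusted p = 0.118), and was called at 0.42 (adjusted p = 0.0220) without scramble replicate 1.

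**Figure D2:**
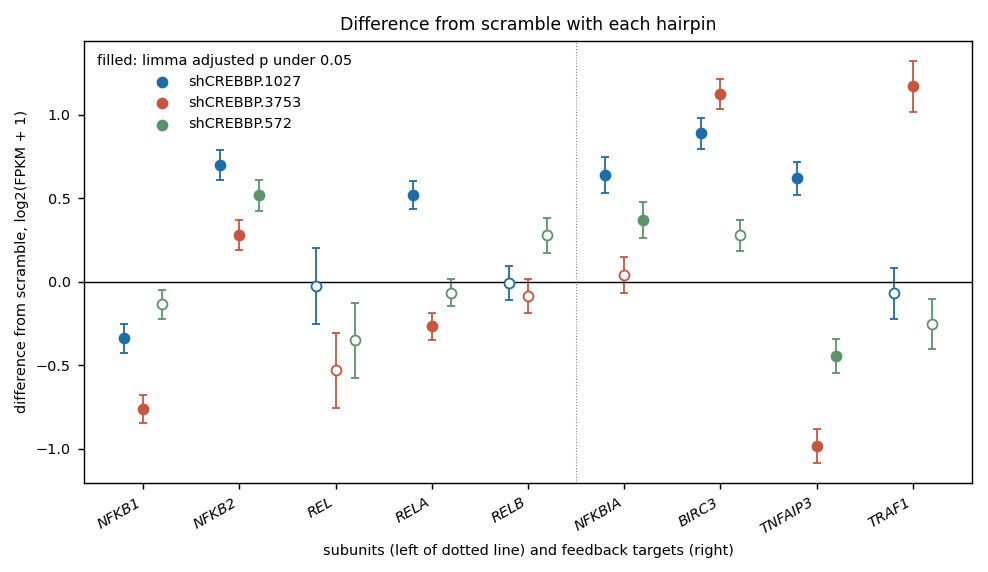
Difference of each hairpin group from scramble in log2(FPKM + 1) for the 9 genes, with SE bars from limma; filled points have an adjusted p under 0.05. Only NFKB2 is filled on the same side of 0 for all 3 hairpins, while TNFAIP3 and RELA have filled points on both sides.

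The hairpin groups differed from each other in 8 of the 9 genes by limma's F test, with REL as the exception (adjusted p = 0.167), but 56.4% of all rows also differed. By pair, shCREBBP.3753 was lower than shCREBBP.1027 in 5 genes (NFKB1, NFKB2, RELA, NFKBIA and TNFAIP3) and higher in 1 (TRAF1), where 15.3% and 25.3% of all rows were called lower and higher, 40.6% in all. Between shCREBBP.572 and shCREBBP.1027, 3 genes were lower (RELA, BIRC3 and TNFAIP3) and 1 was higher (RELB), against 17.6% and 23.9% of rows, 41.5% in all. Between shCREBBP.572 and shCREBBP.3753, 4 genes were higher (NFKB1, RELB, NFKBIA and TNFAIP3) and 2 lower (BIRC3 and TRAF1), against 14.7% and 18.0%, 32.6% in all. Some pairs that were not called passed the threshold under another setting. For shCREBBP.572 against shCREBBP.1027 these were NFKB1 without shCREBBP.3753 replicate 2 (adjusted p = 0.0447) or with the replicate block (0.0498), NFKB2 without scramble replicate 1 (0.0374), and NFKBIA without scramble replicate 1 (0.0252), scramble replicate 3 (0.0361) or shCREBBP.1027 replicate 3 (0.0420). NFKBIA was also called in that pair after quantile normalization (-0.33, adjusted p = 0.00143), upper quartile scaling (-0.40, 0.00651) and with array weights (0.0292), and NFKB2 after upper quartile scaling (-0.31, 0.0279). For shCREBBP.572 against shCREBBP.3753 they were NFKB2 without scramble replicate 1 (adjusted p = 0.0136) or with array weights (0.0158), and RELA without scramble replicate 1 (0.0494) or 3 (0.0283). Of all rows called between shCREBBP.3753 and shCREBBP.1027, 37.6% were lower as deposited, 49.7% after quantile normalization and 54.2% after upper quartile scaling. Between shCREBBP.572 and shCREBBP.1027 these shares were 42.4%, 50.2% and 59.0%.

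The feedback genes had different orders of groups. NFKBIA, TNFAIP3 and BIRC3 hold the kappaB-like letters printed above and TRAF1 holds none in its windows. TNFAIP3 and NFKBIA were highest in libraries labelled shCREBBP.1027, the group that also had the highest RELA and NFKB2. BIRC3 and TRAF1 were highest with shCREBBP.3753, the group with the lowest NFKB1 and RELA. BIRC3 also rose in libraries labelled shCREBBP.1027 (0.89 on the log2 scale, limma adjusted p = 2.75e-05). Its difference between these hairpins was not called (0.24, limma adjusted p = 0.0616). Nor were those between shCREBBP.572 and shCREBBP.1027 for NFKBIA (-0.27, limma adjusted p = 0.0682) and NFKB2 (-0.18, 0.136). For RELA the difference between shCREBBP.572 and shCREBBP.3753 was not called (0.20, limma adjusted p = 0.0823). A link between the letters, the subunit levels and the feedback genes was not tested.

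For the 3 genes with the widest spread of group means on that log2(FPKM + 1) scale, the rows with the most similar pattern were sought among 10420 tested rows with 1 gene name and no value of 0. Likeness was the root mean square difference of log2(FPKM + 1), centred on each row's own mean, over the 12 libraries. The nearest rows to TNFAIP3 were C16orf91, at 0.182, and DDX39A, an RNA helicase, at 0.186. DDX39A was at 114 ± 6.55 FPKM (SD, n = 3) in scramble, 151 ± 10.8 in libraries labelled shCREBBP.1027, 62.9 ± 3.70 for shCREBBP.3753 and 94.5 ± 1.29 for shCREBBP.572. The nearest rows to TRAF1 were GRN, which encodes the secreted and lysosomal protein progranulin, at 0.148, and CTSO, a cathepsin, at 0.198. GRN was at 37.3 ± 4.52, 38.5 ± 2.44, 88.0 ± 7.26 and 30.9 ± 4.09 FPKM in the same order of groups. Nearest to BIRC3 were CALCOCO1, of selective autophagy, at 0.137, and ATP6V1A, a subunit of the vacuolar proton pump, at 0.152. ATP6V1A was at 14.9 ± 3.04, 25.2 ± 1.47, 26.9 ± 1.13 and 16.2 ± 0.54 FPKM. These rows were picked for likeness, so their pattern is a description.

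**Figure D3:**
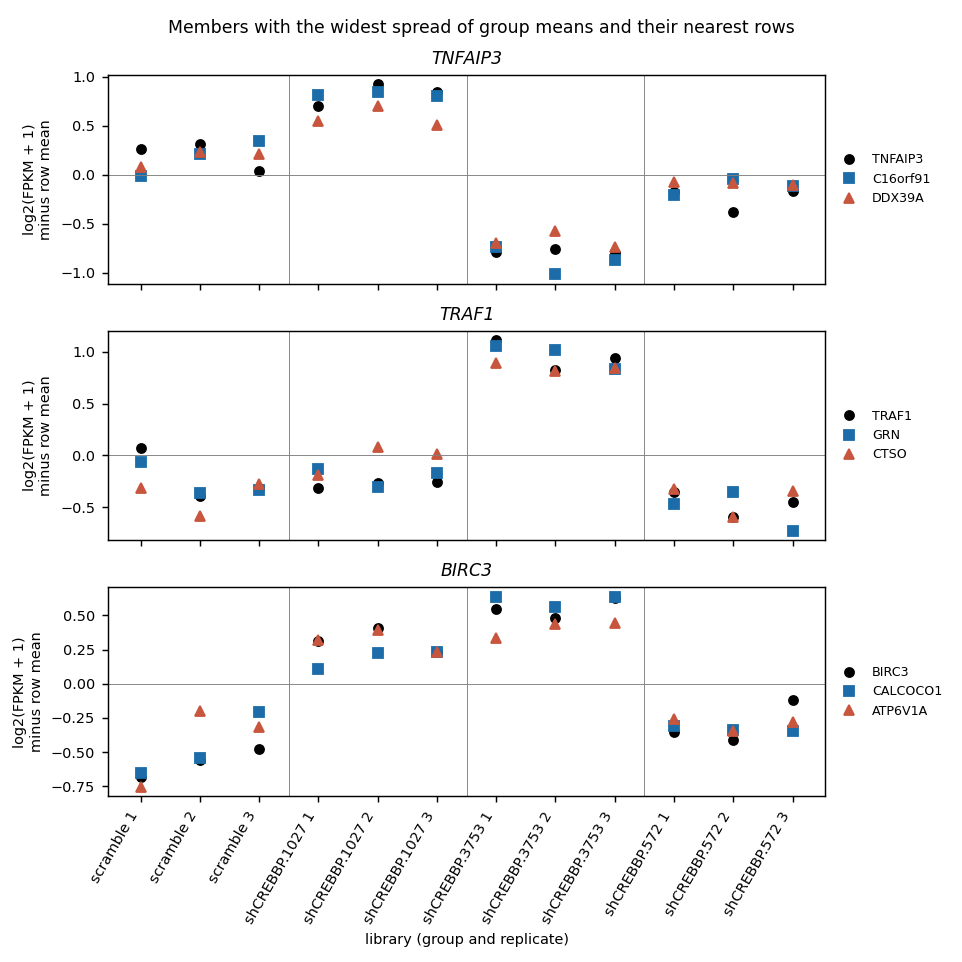
Values of log2(FPKM + 1) minus the row's mean in the 12 libraries, for TNFAIP3, TRAF1 and BIRC3 (circles) and the 2 nearest rows of each (squares and triangles). DDX39A and C16orf91 fall with TNFAIP3 in shCREBBP.3753 libraries, where GRN and CTSO are high with TRAF1.

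The lists of other pathway genes are read against the same shares of all rows as above: 11.5% higher and 14.6% lower in the averaged comparison, 16.5% and 22.7% in libraries labelled shCREBBP.1027, 16.1% and 13.2% for shCREBBP.3753, and 8.99% and 10.8% for shCREBBP.572. Each averaged call given for a named gene of these lists was lost with the 9 hairpin libraries as 1 group (adjusted p = 0.0968 to 0.509). Genes upstream of the subunits carry signals from receptors to IKK. Of 28 such genes on the list, 26 had a row and 22 passed the filter. The row of RNF31 also holds the name IRF9. TNFRSF1B and TAB1 were not analysed here, and CD40, at 0 to 0.162 FPKM, was among the 4 below the filter. Averaged over the hairpins 1 rose and 6 fell (median log2 difference -0.03, against -0.003 over all rows). RIPK1, the kinase that links tumour necrosis factor receptors to IKK, was at 6.62 ± 1.10 FPKM (SD, n = 3) in scramble, 6.09 ± 0.28 in libraries labelled shCREBBP.1027, 13.1 ± 1.39 for shCREBBP.3753 and 7.85 ± 1.06 for shCREBBP.572 (averaged 0.34 ± 0.10 SE, adjusted p = 0.0276). The RIPK1 call was lost without scramble replicate 1 (0.29, adjusted p = 0.0887) or scramble replicate 3 (0.27, adjusted p = 0.121), under array weighting (0.19, adjusted p = 0.119), or with no filter (adjusted p = 0.0625). TNFRSF13B, the receptor TACI for the B-cell factors BAFF and APRIL, was at 17.4 ± 3.85, 11.0 ± 1.35, 7.31 ± 0.56 and 12.6 ± 0.94 FPKM in the same order (-0.71 ± 0.12, adjusted p = 0.00140). IRAK1, a kinase of Toll-like receptor signalling, was at 145 ± 6.85, 55.7 ± 3.08, 116 ± 5.68 and 120 ± 3.50 FPKM (-0.66 ± 0.06, adjusted p = 2.65e-05), and had the smallest p of the list between hairpins (F test adjusted p = 7.24e-07). Its fall was thus deepest in libraries labelled shCREBBP.1027, below shCREBBP.3753 and shCREBBP.572 by more than 1 on the log2 scale (adjusted p = 1.25e-06 and 1.05e-06).

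A list of other regulators, most of them inhibitors, with further IkappaB-family genes and deubiquitinases, had rows for 14 of 15 genes, all tested. FAM105B was not analysed here. The NFKBIZ row also holds the name NXPE3, so its part in the counts below may not be that of NFKBIZ alone. Not every gene on this list solely restrains the pathway, so its counts are not counts of inhibitors alone. Averaged, 4 rose and 2 fell (median 0.13). CYLD, a deubiquitinase that blunts signalling to IKK, was at 9.23 ± 1.35 FPKM (SD, n = 3) in scramble, 13.7 ± 2.12 in libraries labelled shCREBBP.1027, 15.8 ± 0.48 for shCREBBP.3753 and 8.88 ± 0.51 for shCREBBP.572 (0.40 ± 0.10 SE, adjusted p = 0.0102). BIRC2, which lies beside BIRC3 on chromosome 11 (102217913 to 102249401) and encodes its paralog cIAP1, was at 10.6 ± 0.63, 11.5 ± 1.24, 16.8 ± 1.68 and 13.4 ± 1.61 FPKM (0.34 ± 0.09, adjusted p = 0.0149). NFKBIB, which encodes IkappaB-beta, was at 24.9 ± 2.97, 24.8 ± 1.70, 13.1 ± 2.17 and 19.7 ± 1.14 FPKM (-0.40 ± 0.09, adjusted p = 0.00920), a call that ended without scramble replicate 3 (-0.32, adjusted p = 0.0526). TRAF3, which restrains the alternative pathway, was at 9.34 ± 0.11, 5.63 ± 0.29, 7.92 ± 0.19 and 8.49 ± 0.39 FPKM (-0.33 ± 0.06, adjusted p = 0.00177). RNF11, a partner of A20, differed most clearly between hairpins (F test adjusted p = 1.55e-06), at 12.2 ± 2.68, 12.5 ± 0.44, 19.3 ± 0.58 and 4.20 ± 0.36 FPKM. Its averaged difference, -0.21 (adjusted p = 0.158), was -0.39 and called without scramble replicate 1 (adjusted p = 0.00148). By hairpin, 2 of these genes rose and 1 fell in libraries labelled shCREBBP.1027, 6 and 2 with shCREBBP.3753, and 1 and 1 with shCREBBP.572.

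Of 30 other genes known as NF-kappaB targets, 13 passed the filter. The 17 below it included TNF, CCL3, CCL22, BCL2A1 and LTB, at 0 to 0.946 FPKM. Averaged, 3 rose and 3 fell (median 0.13). PLEK, which encodes pleckstrin, rose by 0.76 ± 0.07 (SE; adjusted p = 4.10e-05), from 24.9 ± 1.23 FPKM (SD, n = 3) in scramble to 49.0 ± 3.42 in libraries labelled shCREBBP.1027 and 57.9 ± 4.58 with shCREBBP.572, with 28.0 ± 2.73 with shCREBBP.3753. ICAM1, an adhesion receptor, was at 13.5 ± 0.99 in scramble, 19.5 ± 1.04 in libraries labelled shCREBBP.1027, 24.1 ± 1.49 with shCREBBP.3753 and 11.9 ± 0.83 FPKM with shCREBBP.572 (0.37 ± 0.07, adjusted p = 0.00201), and had the smallest p of the list between hairpins (F test adjusted p = 8.86e-06). GADD45B, a stress-response gene, was at 30.8 ± 2.79, 30.7 ± 2.99, 26.3 ± 0.86 and 16.4 ± 0.93 FPKM (-0.37 ± 0.07, adjusted p = 0.00391). IRF4, a transcription factor of activated B cells and plasma cells, was at 101 ± 4.20, 82.7 ± 0.48, 70.1 ± 2.20 and 92.0 ± 1.91 FPKM (-0.31 ± 0.05, adjusted p = 9.45e-04). Among the 13 tested targets the numbers called higher and lower were 3 and 1 in libraries labelled shCREBBP.1027, 4 and 2 for shCREBBP.3753, and 1 and 4 for shCREBBP.572, and several of these counts are near the shares of all rows.

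**Figure D4:**
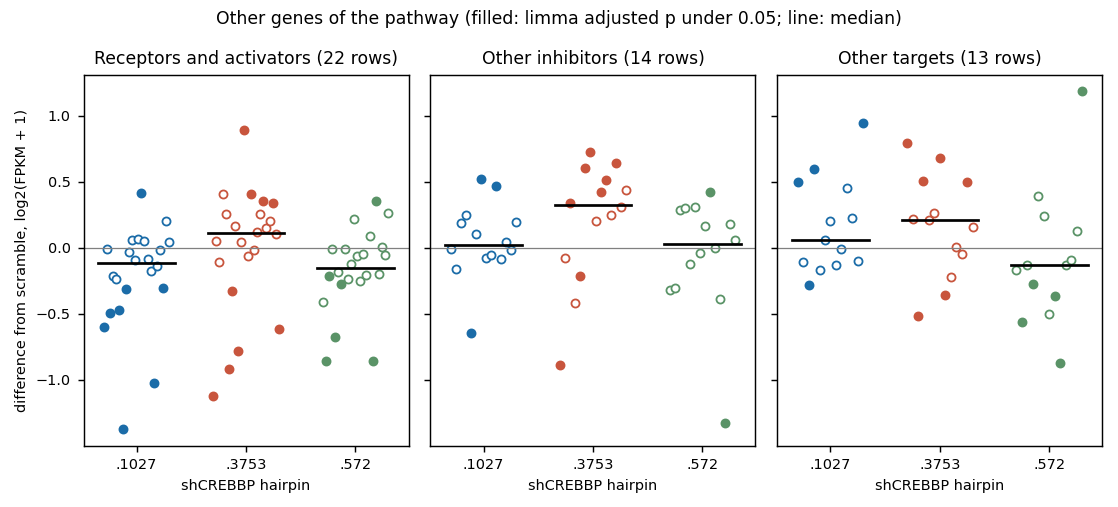
Difference from scramble in log2(FPKM + 1) for the tested rows of 3 lists of other pathway genes, by hairpin; each point is a gene, filled where the limma adjusted p is under 0.05, and lines are medians. Filled points lie on both sides of 0 for each list and hairpin.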

How the data were processed

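Stranded total RNA libraries, depleted of ribosomal RNA, were made from MD901 cells in 4 groups of 3, per the labels' protocols. The authors deposited 1 table with a value for each of 12 libraries and each assembled locus. Its values were read as FPKM, since the deposited table names no unit and the submitters' processing notes list CASAVA 1.8, TopHat2, Cufflinks and hg19. The sources used here do not give the annotation or any use of strand. The commonest ratio of low values between libraries held 4.21% to 9.65% of low rows, so whole reads were not recovered, no count test was run and no counting interval can be given.

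Loci are on hg19, counted from 1, and can be wider than the gene. Overlapping or antisense genes and paralogs may share reads. Values were taken as log2(FPKM + 1). The 11757 rows whose mean reached 1 FPKM entered a limma trend model of 4 group means (limma 3.58.1, R 4.3.3). Benjamini-Hochberg adjustment covered all of them, with a threshold of 0.05. The fit was tested on simulated data. Exact permutation tests were two-sided. Those given pool the 9 hairpin libraries against scramble, as if libraries of different hairpins were exchangeable. With 3 libraries against 3 such a test cannot go below 0.1. Replicate numbers were not taken to pair the libraries, since the labels do not say so. Deviations from group means had a median correlation of 0.051 between same-numbered libraries and -0.018 between others, and pairing was not tested. The genes and lists were chosen with earlier results of these data known. Named genes of the other lists were those called with the 2 largest rises and 2 largest falls in the averaged comparison, and the smallest p between hairpins. Alternatives were pseudocount 0.1, no filter, a mean of at least 5 FPKM, quantile or upper quartile scaling, array weights, robust eBayes, a replicate block, each library left out, summed rows, the 9 hairpin libraries as 1 group, and only the 6 libraries compared.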

Additional observations from a re-analysis of the deposited data

Results flagged for a closer look

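By limma's F test, with p-values adjusted over all rows, the 3 hairpin groups differed from each other in NFKB1 (adjusted p = 2.78e-04), NFKB2 (0.00720), RELA (3.48e-05), RELB (0.0239), NFKBIA (0.00211), BIRC3 (4.98e-05), TNFAIP3 (1.18e-06) and TRAF1 (3.03e-05). Of all rows 56.4% also differed between these groups.

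RELB stands on 3 rows, of which the report used that with the highest mean. In scramble the second row held 0.428, 1.23 and 1.86 FPKM, and libraries labelled shCREBBP.1027 held 3.97, 4.84 and 3.31 FPKM, a log2 difference of 1.26 (limma adjusted p = 0.00255). It held 1.56, 0.872 and 1.19 FPKM with shCREBBP.3753, and 2.59, 4.24 and 2.76 with shCREBBP.572, all above scramble. Averaged over the hairpins the difference was 0.77 (limma adjusted p = 0.0197), and the hairpins differed by limma's F test (adjusted p = 0.00497). What transcript this row holds is not given in the sources used here.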

How the results depend on the processing

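Of 1352 values of single genes under 25 alternatives, 1236 kept direction and side of the threshold, 60 lost a call, 34 gained one and 22 changed sign, all 22 for differences not called in the first place. The number of genes higher in the averaged comparison was 3, 5 with array weights and 0 with the 9 hairpin libraries as 1 group. The number lower was 2, 1 with no filter, 1 with upper quartile scaling and 0 with the 9 libraries as 1 group. For shCREBBP.1027 the 1 lower gene became 0 with upper quartile scaling. For shCREBBP.572 the 2 higher genes became 1 with no filter, 4 with array weights and 1 in the fit of 6 libraries, where the 1 lower gene became 0. Between shCREBBP.3753 and shCREBBP.1027, 1 higher gene became 2 with array weights. Between shCREBBP.572 and shCREBBP.1027, 1 higher gene became 0 with no filter, quantile normalization, upper quartile scaling or summed rows and 2 with the replicate block, and 3 lower genes became 5 with upper quartile scaling. Between shCREBBP.572 and shCREBBP.3753, 2 lower genes became 1 at a mean of at least 5 FPKM, where TRAF1 is not tested. The cause of the other changes was not tested. With single libraries left out, averaged counts ranged from 3 to 4 higher and 1 to 2 lower. For shCREBBP.1027 they stayed at 5 and 1, for shCREBBP.3753 they were 2 to 3 each way, and for shCREBBP.572 1 to 2 higher and 1 lower. Between hairpins they ranged from 1 to 2 higher and 5 to 6 lower (shCREBBP.3753 and shCREBBP.1027), 0 to 1 and 3 to 5 (shCREBBP.572 and shCREBBP.1027), and 2 to 6 and 2 (shCREBBP.572 and shCREBBP.3753), and 7 to 8 genes differed by the F test.

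Sign changes in libraries labelled shCREBBP.1027 were in REL (-0.03; 0.0373 with quantile normalization, 0.113 with upper quartile scaling, 0.277 with array weights, -0.236 to 0.201 with libraries left out) and in RELB (-0.01; 0.0582, 0.140 and 0.124 in the same order, 0.119 with summed rows, -0.102 to 0.0696 with libraries left out). TRAF1 was there at -0.07, at 0.0301 with upper quartile scaling, at 0.0722 with array weights and at -0.157 to 0.0721 with libraries left out. For shCREBBP.3753 against scramble, array weights gave 0.0738 for RELB and -0.0022 for NFKBIA, and NFKBIA ranged from -0.0597, without scramble replicate 1, to 0.144. The averaged difference ranged from -0.0236, without scramble replicate 3, to 0.104 for RELA and from -0.0326, without scramble replicate 2, to 0.139 for RELB. Between shCREBBP.3753 and shCREBBP.1027, RELB ranged from -0.137 to 0.0055, the latter without shCREBBP.3753 replicate 3. CREBBP, averaged, was at 0.0359 with upper quartile scaling, at 0.212 with array weights and at -0.252 to 0.304 with libraries left out.

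The 9 hairpin libraries as 1 group, where differences between hairpins count as error, called none of the genes (adjusted p = 0.218 for NFKB1, 0.0696 for NFKB2, 0.290 for NFKBIA, 0.0903 for BIRC3 and 0.756 for TNFAIP3). The averaged values of CREBBP and 12 named genes of the other lists were recomputed as an addition made after seeing the data: 265 of 286 kept direction and side of the threshold, 16 lost a call, 2 gained one and 3 changed sign. Each of these 12 genes called in the first place, all but RNF11, lost its call with the 9 libraries as 1 group (adjusted p = 0.0968 for TNFRSF13B to 0.509 for RIPK1). The labels do not say that replicate numbers pair libraries. Deviations from the group means correlated weakly between same-numbered libraries (median 0.051, -0.060 to 0.127, 2 of 18 above 0.1) and between others (median -0.018, -0.202 to 0.128). In the data 7 of 12 libraries correlated best with 1 of their own number, a hint that was not tested. The replicate block changed the calls of all rows in the averaged comparison from 3060 to 3111, and the 5 higher and 1 lower genes with shCREBBP.1027 were as before.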
